A study of Oryza sativa with 2 samples.

Results

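The loci described here are the 90 short RNA loci, of 1349 listed in rice (Oryza sativa), that lie wholly within 3 stretches of nuclear chromosomes whose listed loci resemble those of the organelle genomes. Every listed locus of either strand inside 3 windows of 82, 109 and 116 kb was taken. They were 24 loci from 33499542 to 33580921 on chromosome 1, 36 from 9085542 to 9193944 on chromosome 4 and 30 from 10729105 to 10844973 on chromosome 10. The windows were chosen because earlier results on these lists showed loci there with the length and reads of chloroplast (chrC) or mitochondrial (chrM) loci, so lengths, positions and read counts below are descriptions and carry no test. The resemblance is one of lengths, read counts and order, since no sequence was used here. Positions are those of the deposited lists; the sources used here do not name their genome build.

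The series sequenced RNA of 50 to 500 nt by pyrosequencing in 2 libraries. Stage 2 is labelled with anther, pistil and grouting embryo, and stage 1 with coleoptiles, radicals, shoot, and tillering leaves. The labels give no cultivar, genotype, treatment or age, and do not say whether tissues were pooled. In stage 2 there were 117798 reads at 1163 loci, and in stage 1 there were 80651 reads at 838. With a single library per stage nothing has a replicate error, and each interval below is an exact 95% interval for counting error only, with reads taken as independent molecules. A locus missing from a list was given 0 reads, which allows up to 25.5 RPM (reads per 1000000 library reads) in stage 2 and 37.2 RPM in stage 1 at a floor of 3 reads. Stage and tissue differ together between the libraries, and in bulk RNA fewer cells of a type and less RNA per cell cannot be told apart.

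Chloroplasts and mitochondria keep their own small genomes, and pieces of these have moved into plant nuclear chromosomes throughout evolution. A plastid piece in a nucleus is usually called a NUPT and a mitochondrial piece a NUMT. Rice chromosome 10 is known for a very large plastid insertion. The chloroplast genome of rice carries a large inverted repeat, so that genes within it occur in a pair of mirrored copies. A read that fits several such places equally well cannot be assigned to 1 of them by its sequence alone.

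All 90 loci shared their length and both read counts with at least 1 other listed locus, while 508 of 1191 other nuclear loci (42.7%) did. Equality with an organelle locus held for 80 of the 90 (88.9%) and for 125 of the other nuclear loci (10.5%). The 90 loci made up only 34 distinct combinations of length, stage 2 reads and stage 1 reads. Of these, 13 occurred in all 3 stretches, 12 in exactly 2 and 9 in 1, and 31 also occurred at nuclear loci outside the stretches. A combination with few reads can recur by coincidence, so order along the chromosome was used as well. The sources used here do not say how reads matching several places were counted. The equal counts in every copy mean that a sum over the loci may hold the same reads several times.

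A run was defined as at least 2 stretch loci that equal organelle loci in length and reads and keep their spacing, with the offset between the positions moving by at most 1000 nt from 1 pair to the next. In a direct run the strands match, and in a mirrored run order and strand are both turned round. By that rule 76 of the 90 loci lay in 20 runs, 74 of them matching chrC and 2 matching chrM. Of these 76 loci, 23 also fitted a second organelle place in a run. The other nuclear loci in such runs numbered 44 of 1191 (3.69%), so the 3 stretches held 63.3% of the 120 nuclear loci in runs. Among the 14 loci in no run, 4 equalled an organelle locus singly and 10 equalled none.

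**Figure D1:**
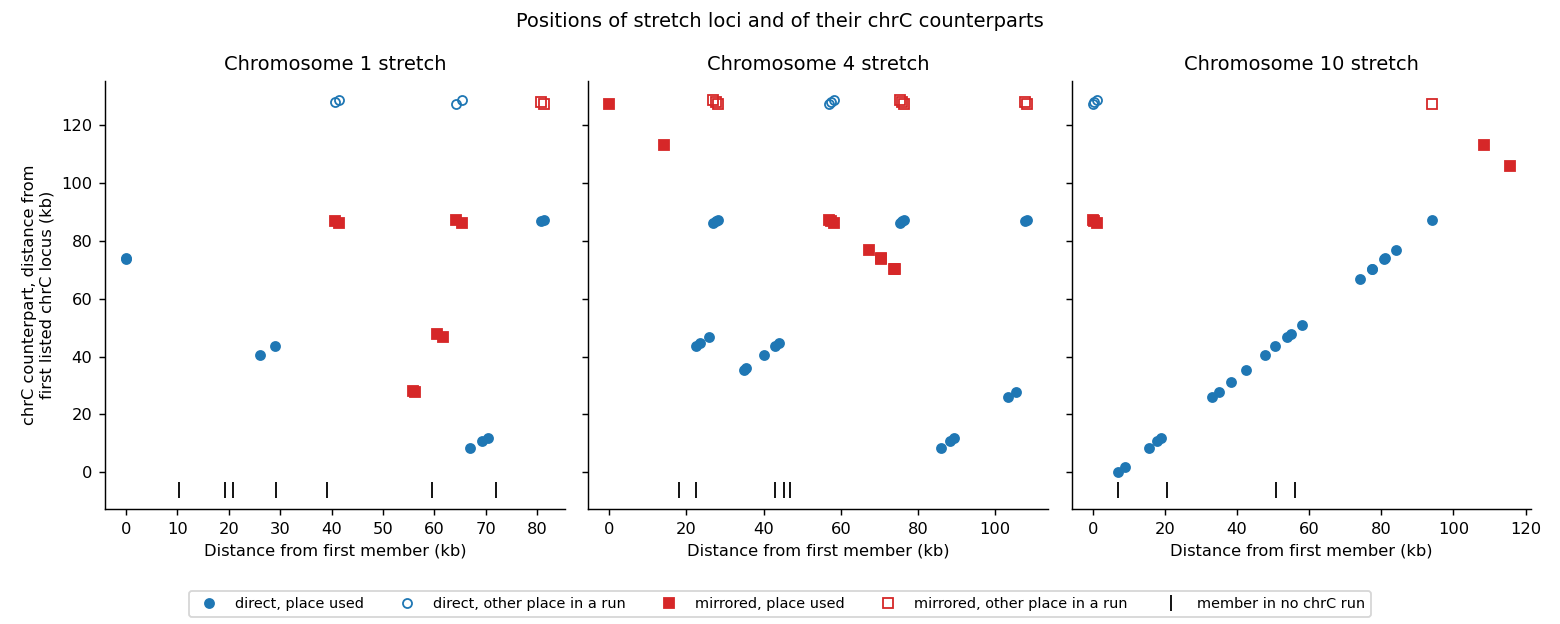
Distance of each stretch locus from the first locus of its stretch (x axis, kb) against the distance of its chrC counterpart from the first listed chrC locus (y axis, kb). Circles are direct and squares mirrored pairs, open symbols mark another place that also forms a run, and ticks mark loci in no chrC run, including the 2 that match chrM; the chromosome 10 panel holds 1 diagonal of 21 loci, while the other panels hold short pieces.

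The chromosome 10 stretch followed the chloroplast map over most of its length. Of its 30 loci, 26 lay in 3 runs. The longest run, from JNnc_loci1072 to JNnc_loci1095, held 21 loci over 87199 nt (10736226 to 10823424). Their counterparts ran from 212 to 87506 on chrC, a span of 87295 nt, so the nuclear span was the shorter. Before it, JNnc_loci1068 to JNnc_loci1070 (10729105 to 10730335) formed a run of 3 with a span of 1231 nt, equal to that on chrC. After it, JNnc_loci1096 and JNnc_loci1097 continued from JNnc_loci1095 in mirrored order to 10844973, over 21674 nt against 21675 nt on chrC (106063 to 127737). JNnc_loci1095 fitted both the end of the long run and the start of the mirrored one, because its 125 nt counterpart is listed at 2 chrC positions.

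The long run on chromosome 10 was not a complete copy of the list. Of the 31 chrC loci between its ends, 21 had a counterpart in the run and 10 had none. The 10 had 2 to 9 reads over both libraries. They include JNnc_loci1284 (347 nt, 5 reads in stage 2 and 4 in stage 1), JNnc_loci1288 (97 nt, 0 in stage 2 and 5 in stage 1) and JNnc_loci1290 (237 nt, 4 in stage 2 and 1 in stage 1), none of which had an equal locus anywhere in the nuclear lists. JNnc_loci1293, JNnc_loci1296 and JNnc_loci1299 were missing there and had counterparts in another stretch instead. JNnc_loci1310 and JNnc_loci1311 were missing at the end of the long run, although the loci equal to them lay at the other end of the stretch as JNnc_loci1070 and JNnc_loci1069. Those 2 loci fitted the other chrC copy, JNnc_loci1317 and JNnc_loci1316, equally well in direct order.

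The chromosome 4 stretch was a mosaic of pieces that matched chrC out of map order. Its 36 loci included 31 in 8 runs, the longest of 8 loci. JNnc_loci0479 and JNnc_loci0480 (9085542 to 9099897) came first and mirrored chrC from 113385 to 127737. JNnc_loci0482 to JNnc_loci0485 (9107950 to 9111329) then repeated chrC from 43795 to 47182 directly. JNnc_loci0486 to JNnc_loci0488 (9112521 to 9113751) matched 86276 to 87506. JNnc_loci0489 to JNnc_loci0494 took up chrC again at 35732 and ended at 44955, over 9209 nt against 9224 nt on chrC. The longest run, JNnc_loci0497 to JNnc_loci0504 (9142615 to 9159582), mirrored chrC from 70573 to 87506 and was 34 nt longer than that region. JNnc_loci0505 to JNnc_loci0507 (9160838 to 9162068) matched 86276 to 87506 once more. JNnc_loci0508 to JNnc_loci0512 (9171499 to 9190950) repeated chrC from 8771 to 28197, over 19452 nt against 19427 nt. JNnc_loci0513 and JNnc_loci0514 (9193394 to 9193944) closed the stretch with chrC 86956 to 87506. This last run fitted a second place, within chrC 127613 to 128843 in mirrored orientation, equally well. So did JNnc_loci0486 to JNnc_loci0488 and JNnc_loci0505 to JNnc_loci0507, and the lower chrC position is printed for each.

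Parts of the chloroplast map thus occurred more than once on chromosome 4. JNnc_loci1298 (113 nt) and JNnc_loci1299 (94 nt) of chrC had 2 counterparts each in runs there, JNnc_loci0482 and JNnc_loci0492 for the first and JNnc_loci0484 and JNnc_loci0494 for the second. In both copies the 2 starts were 1065 nt apart, against 1067 nt on chrC. JNnc_loci0495, another 94 nt locus with 2 reads in stage 2 and 5 in stage 1, lay 1233 nt after JNnc_loci0494 on the opposite strand and in no run.

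The chromosome 1 stretch was the most broken up of the 3, and the only one of them with a mitochondrial run. Of its 24 loci, 19 lay in 9 runs, 8 of 2 loci and 1 of 3. JNnc_loci0098 and JNnc_loci0099 (33499542 to 33499711) matched chrC 74063 to 74232. JNnc_loci0101 and JNnc_loci0102 (33518888 to 33520388) matched chrM over 1501 nt with no difference in spacing, and fitted both chrM places equally well (361785 to 363285 and 442872 to 444372). JNnc_loci0103 and JNnc_loci0104 (33525629 to 33528630) returned to chrC, at 40898 to 43907.

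Further along chromosome 1 the pieces matched separate parts of the chloroplast map, some mirrored and some direct. JNnc_loci0107 and JNnc_loci0108 (33540243 to 33540993) belonged to a set of loci that chrC lists in mirrored copies. JNnc_loci0109 and JNnc_loci0110 (33555448 to 33555868) mirrored chrC 28129 to 28549. JNnc_loci0112 and JNnc_loci0113 (33560150 to 33561194) mirrored chrC 47138 to 48180. JNnc_loci0114 and JNnc_loci0115 (33563826 to 33565056) and JNnc_loci0120 and JNnc_loci0121 (33580371 to 33580921) belonged to that set again. Between them JNnc_loci0116 to JNnc_loci0118 (33566482 to 33569979), the only run of 3 on chromosome 1, repeated chrC 8771 to 12264 directly and was 4 nt longer. When runs of at least 3 loci were required, 26 loci on chromosome 10 and 27 on chromosome 4 still lay in runs, but only 3 on chromosome 1.

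Within runs, spacing between neighbours was nearly that of the organelle genomes. Like spacing was a condition of entry, since offsets could move by at most 1000 nt, so only differences well below that are informative. The 76 loci in runs gave 56 pairs of neighbours, 26 of which were exactly as far apart as their counterparts and 49 within 10 nt. Each copy of a repeated piece is counted here. The exact pairs include many copies of the set that chrC lists in mirrored copies, and overlapping loci on opposite strands. The nuclear distance was longer in 15 pairs and shorter in 15. The largest difference was 69 nt, between JNnc_loci1073 and JNnc_loci1074 on chromosome 10, which started 6579 nt apart against 6648 nt on chrC. The widest deviation on chromosome 4 was 40 nt and that on chromosome 1 was 8 nt.

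Some deviations recurred between stretches. Counterparts of JNnc_loci1297 and JNnc_loci1298 started 2889 nt apart on both chromosome 1 (JNnc_loci0103 and JNnc_loci0104) and chromosome 10 (JNnc_loci1082 and JNnc_loci1083), 8 nt less than the 2897 nt on chrC. On chromosome 4 the same pair, JNnc_loci0491 and JNnc_loci0492, was 2883 nt apart. Counterparts of JNnc_loci1300 and JNnc_loci1301 lay 2 nt farther apart than on chrC in both the chromosome 1 and the chromosome 10 stretch. Other pairs differed between stretches. Counterparts of JNnc_loci1285 and JNnc_loci1286, 2337 nt apart on chrC, were 2341 nt apart on chromosome 1, 2338 on chromosome 4 and 2336 on chromosome 10.

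The most repeated piece was a set of 3 loci of 87, 71 and 125 nt that chrC lists as a mirrored pair (JNnc_loci1310 to JNnc_loci1312 and JNnc_loci1315 to JNnc_loci1317). On chrC the gaps were 593 nt between the 87 and 71 nt loci and 355 nt between the 71 and 125 nt loci, in both copies. The stretches held 10 copies with 22 loci, 4 of them complete, 4 with 2 of the 3 loci and 2 with the 125 nt locus alone. Chromosome 4 held 5 copies with 12 loci, chromosome 1 held 3 copies with 6 loci and chromosome 10 held 2 copies with 4 loci. Wherever both loci of a gap were listed, the gap had the same length as on chrC, to the nucleotide. JNnc_loci0114 and JNnc_loci0115 on chromosome 1 lacked the 71 nt locus between them, yet were 1019 nt apart, as on chrC. Each 125 nt and each 87 nt locus had 0 reads in stage 2 and 3 in stage 1, and each 71 nt locus 2 in stage 2 and 1 in stage 1. The 125 nt combination was listed at 16 places in all.

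**Figure D2:**
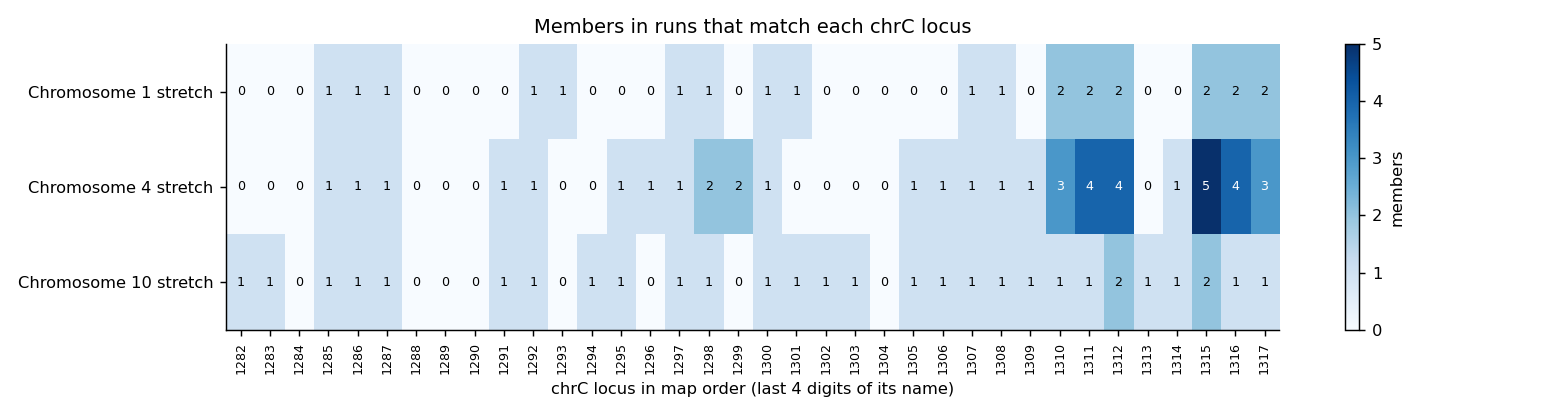
Number of stretch loci in runs that match each of the 36 chrC loci (columns, in map order, named by the last 4 digits) in each stretch (rows); a locus that fits both copies of the mirrored pair is counted in both columns. JNnc_loci1315 reached 5 on chromosome 4, and 5 columns are at 0 in all 3 rows.

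Across the 36 chrC loci, 31 had a counterpart in a run of at least 1 stretch and 15 had one in all 3. Chromosome 10 covered 28 of them, chromosome 4 covered 23 and chromosome 1 covered 17. The 5 with none were JNnc_loci1284, JNnc_loci1288, JNnc_loci1289, JNnc_loci1290 and JNnc_loci1304. JNnc_loci1289 (64 nt, 13862 to 13925 on the minus strand, 2 reads in stage 2 and 0 in stage 1) was missed by 1 nt of length. JNnc_loci0119 on chromosome 1 and JNnc_loci1077 on chromosome 10, both 65 nt with 2 reads in stage 2 and 0 in stage 1, fell at chrC 13858 to 13922 and 13859 to 13923 when carried over by the offset of the run locus nearest to each. Both overlap JNnc_loci1289 on its strand, and both joined runs when lengths were allowed to differ by 2 nt.

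Other loci in no run pointed to chrC positions where no locus is listed. JNnc_loci0105 (chromosome 1), JNnc_loci0483 and JNnc_loci0493 (chromosome 4) and JNnc_loci1084 (chromosome 10) were all 103 nt long with 0 reads in stage 2 and 2 in stage 1. Each lay 9 to 11 nt beyond the counterpart of JNnc_loci1298. Carried over to chrC, their starts fell at 43919, 43918, 43917 and 43918 on the minus strand. JNnc_loci0111 on chromosome 1 and JNnc_loci1087 on chromosome 10, 69 nt long with 1 read in stage 2 and 2 in stage 1, both fell at chrC 49156 to 49224, 975 nt from JNnc_loci1301. JNnc_loci1071 (64 nt, 3 reads in stage 2 and 0 in stage 1) lay 171 nt before the start of the long run on chromosome 10. Its carried-over start fell at -23 in chrC coordinates, before the first position of chrC. It had the reads of JNnc_loci1282 (65 nt), and joined the long run when lengths were allowed to differ by 2 nt. JNnc_loci1072 already matches JNnc_loci1282 in that run, so this was a further match to the same chrC locus.

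The remaining loci in no run were single matches or far from any run. JNnc_loci0106 (60 nt, 0 reads in stage 2 and 3 in stage 1) equalled JNnc_loci1302 of chrC and both JNnc_loci1319 and JNnc_loci1323 of chrM. It joined a run when offsets were allowed to move by 5000 nt. JNnc_loci0481 (62 nt, 0 reads in stage 2 and 2 in stage 1) equalled JNnc_loci1283 in the opposite orientation. JNnc_loci0496 (65 nt, 3 reads in stage 2 and 0 in stage 1) likewise equalled JNnc_loci1282. JNnc_loci0100 (65 nt, 2 reads in stage 2 and 0 in stage 1) had no run locus within 5000 nt and no equal organelle locus.

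The stretches stood close together in loci but thin in reads. They held 2.93 loci per 10 kb on chromosome 1, 3.30 on chromosome 4 and 2.59 on chromosome 10, against 0.0303, 0.0348 and 0.0270 on the rest of each chromosome. Starts of neighbouring loci were a median of 1894 nt apart over the stretches, 2228 nt on chrC, 9650 nt on chrM and 102652 nt among other nuclear loci. The median locus had 3 reads over both libraries in each stretch and on chrC, and 5 on chrM and among other nuclear loci. Of the 90 loci, 66 (73.3%) had 3 reads or fewer. The shares were 61.1% on chrC, 40.6% on chrM and 42.1% among other nuclear loci. Median length was 74.5 nt on chromosome 1, 89.5 nt on chromosome 4 and 74 nt on chromosome 10, beside 85.5 nt on chrC and 92 nt on chrM. Only 3 loci of 45 nt and 1 of 637 nt lay outside the 50 to 500 nt fraction.

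The windows end close to 1 outside locus only, on chromosome 1. The last locus inside the chromosome 1 window was JNnc_loci0121 (125 nt, 0 reads in stage 2 and 3 in stage 1). JNnc_loci0122 lay 2708 nt beyond it, outside the window, with 61 nt, 3 reads in stage 2 and 1 in stage 1, equal to JNnc_loci1340 and JNnc_loci1349 of chrM. On the other sides the nearest outside locus was 50647 nt or more away and equalled no organelle locus. The nearest of these, JNnc_loci1098 on chromosome 10 (97 nt, 10 reads in stage 2 and 0 in stage 1), followed JNnc_loci1097 (57 nt, 2 in stage 2 and 0 in stage 1).

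The 7 stretch loci of 637, 45 and 170 nt held 167 of the 438 reads counted over all 90 (38.1%). JNnc_loci0101 on chromosome 1, the 637 nt locus in the chrM run, had 42 reads in stage 2 and 11 in stage 1. Its ratio of stage 2 to stage 1 RPM was 2.61 (1.32 to 5.63). Its chrM equals, JNnc_loci1337 and JNnc_loci1346, had the same counts. Its neighbour JNnc_loci0102 had 2 reads in stage 2 and 0 in stage 1.

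The 45 nt loci JNnc_loci0113, JNnc_loci0485 and JNnc_loci1085, equal to JNnc_loci1300 of chrC, had 17 reads in stage 2 and 0 in stage 1 in each stretch. With stage 1 set to the floor of 3 reads, the ratio of stage 2 to stage 1 RPM was 3.88. The counting interval from the listed reads had a lower limit of 2.83. Per length they held the most reads of any stretch loci, 37.8 per 100 nt over both libraries, against 8.32 for JNnc_loci0101.

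The 170 nt loci JNnc_loci0098, JNnc_loci0501 and JNnc_loci1092, equal to JNnc_loci1307, had 8 reads in stage 2 and 13 in stage 1, a ratio of 0.421 with an interval that includes 1 (0.151 to 1.10). A 53 nt locus lay wholly within each of them on the opposite strand, namely JNnc_loci0099, JNnc_loci0502 and JNnc_loci1093, with 2 reads in stage 2 and 6 in stage 1. The same nesting is listed on chrC as JNnc_loci1307 and JNnc_loci1308. Per length the 53 nt loci had 15.1 reads per 100 nt and the 170 nt loci 12.4. A second pair on opposite strands, of 216 nt (3 reads in stage 2, 5 in stage 1) and 73 nt (1 in each stage), overlapped by 38 nt on chromosome 4 (JNnc_loci0503 and JNnc_loci0504) and on chromosome 10 (JNnc_loci1091 and JNnc_loci1090).

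Next in order came loci with single-digit counts. On chromosome 4 these were JNnc_loci0484, JNnc_loci0494 and JNnc_loci0495, with 2 reads in stage 2 and 5 in stage 1, and JNnc_loci0490 (178 nt) with 3 in stage 2 and 4 in stage 1. JNnc_loci0117 and its equals JNnc_loci0509 and JNnc_loci1075 had 0 reads in stage 2 and 4 in stage 1, as did JNnc_loci0109 and JNnc_loci1080. JNnc_loci0116, JNnc_loci0508 and JNnc_loci1074 had 1 read in stage 2 and 3 in stage 1. No ratio is given for loci with 3 reads or fewer in both libraries.

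**Figure D3:**
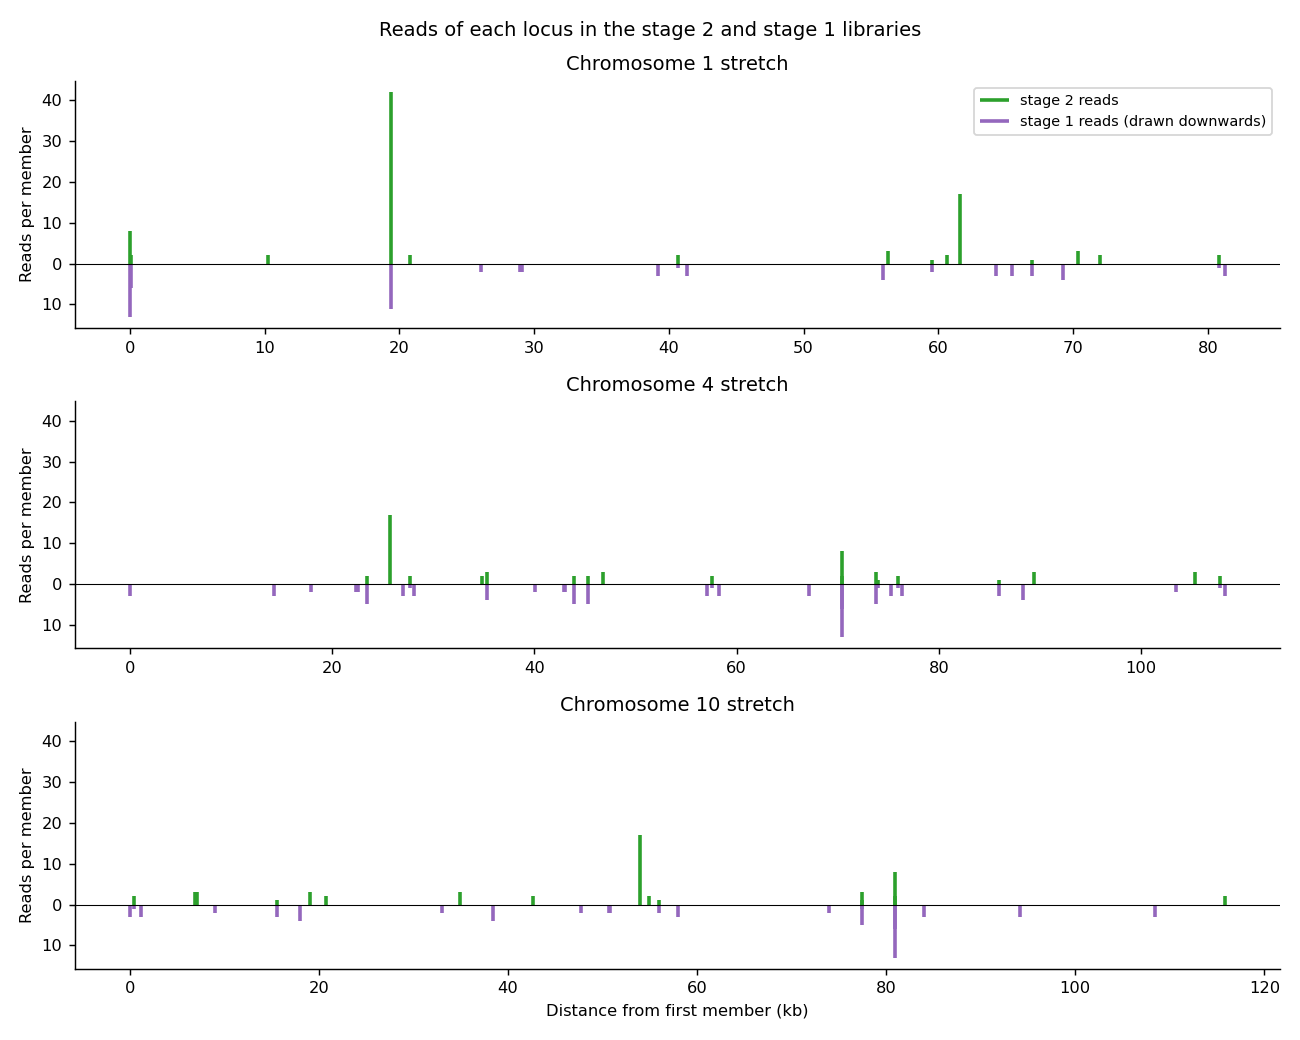
Reads of each locus in stage 2 (upwards) and in stage 1 (downwards) by distance from the first locus of its stretch (x axis, kb); overlapping loci share a line. JNnc_loci0101 stands at 42 stage 2 and 11 stage 1 reads on chromosome 1, and a bar of 17 stage 2 and 0 stage 1 reads recurs in each panel.

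By reads, the stretches were set between the libraries as follows. Chromosome 1 had 89 reads in stage 2 and 66 in stage 1, 0.0756% (0.0607 to 0.0930) of stage 2 and 0.0818% (0.0633 to 0.104) of stage 1, with Clopper-Pearson intervals. Its ratio was 0.923 (0.664 to 1.29). Chromosome 4 had 60 reads in stage 2 and 99 in stage 1, 0.0509% (0.0389 to 0.0656) of stage 2 and 0.123% (0.0998 to 0.149) of stage 1, a ratio of 0.415 (0.296 to 0.578). Chromosome 10 had 55 in stage 2 and 69 in stage 1, 0.0467% (0.0352 to 0.0608) of stage 2 and 0.0856% (0.0666 to 0.108) of stage 1, a ratio of 0.546 (0.376 to 0.789). For chrC the ratio was 0.536 (0.388 to 0.737), and for chrM 0.557 (0.512 to 0.605). With equal loci entered once they were 0.564 (0.405 to 0.783) for chrC and 0.832 (0.718 to 0.965) for chrM. Since equal loci may share reads, these sums are not separate measurements and their intervals are too narrow, so no call is made from them. Over all 3 stretches there were 204 reads in stage 2 and 234 in stage 1, a ratio of 0.597 (0.492 to 0.723), which became 0.791 (0.591 to 1.06) with equal loci entered once. Libraries scaled to the median ratio of loci listed in both lowered every ratio by the same factor. They put chromosome 1 at 0.679 (0.489 to 0.949), chromosome 4 at 0.305 (0.218 to 0.425) and chromosome 10 at 0.402 (0.277 to 0.581). Restricted to loci with at least 5 reads, the ratio was 1.57 (1.01 to 2.50) on chromosome 1, 0.621 (0.392 to 0.981) on chromosome 4 and 0.856 (0.484 to 1.53) on chromosome 10. On chromosome 1 only JNnc_loci0098, JNnc_loci0099, JNnc_loci0101 and JNnc_loci0113 passed, and JNnc_loci0101 alone had 42 stage 2 reads. On chromosome 10 only JNnc_loci1085, JNnc_loci1091, JNnc_loci1092 and JNnc_loci1093 passed.

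The chromosome 1 ratio depended on JNnc_loci0101, the 637 nt locus found in that stretch alone. Without it the ratio was 0.585 (0.388 to 0.880). The 45 nt locus has the same counts in every stretch, and leaving it out gave 0.747 (0.527 to 1.06) on chromosome 1, 0.297 (0.203 to 0.429) on chromosome 4 and 0.377 (0.247 to 0.568) on chromosome 10. Without both JNnc_loci0101 and the 45 nt locus chromosome 1 was at 0.373 (0.231 to 0.593). With each combination of length and reads entered once per stretch, the ratios were 0.986 (0.699 to 1.40) on chromosome 1, 0.535 (0.362 to 0.787) on chromosome 4 and 0.571 (0.392 to 0.829) on chromosome 10. The loci left out were chosen after the counts were seen.

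**Figure D4:**
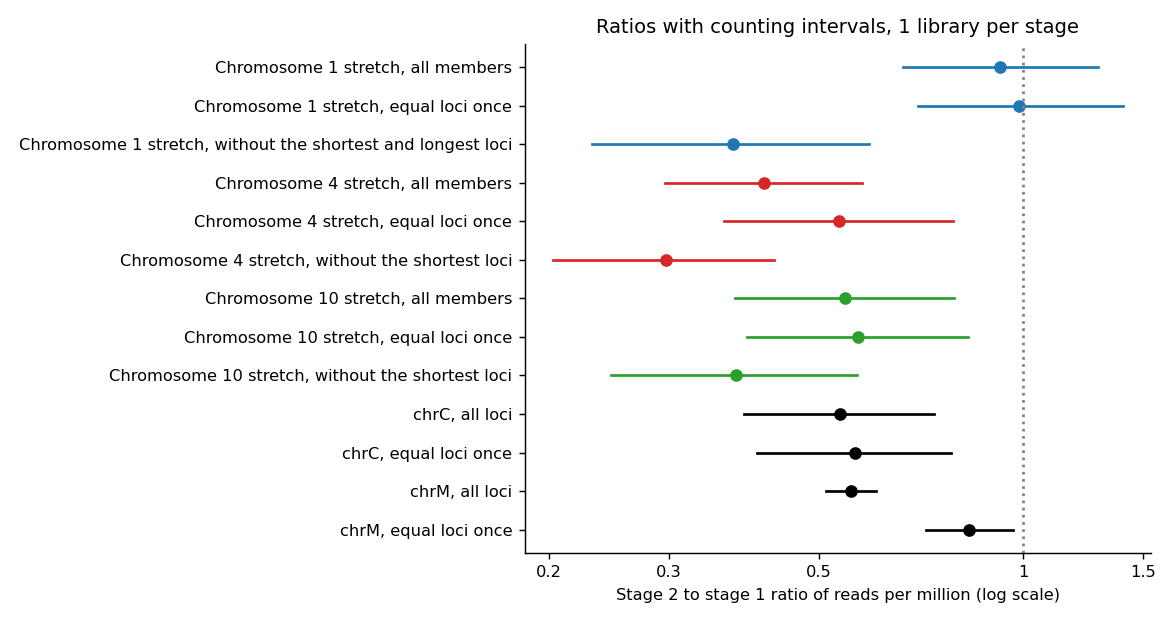
Stage 2 to stage 1 ratio of RPM (x axis, log scale) for each stretch, chrC and chrM, with 95% counting intervals as bars and a dotted line at 1. The chromosome 1 ratio of 0.923 drops to 0.373 without its 45 and 637 nt loci, while chromosomes 4 and 10 stay under 1 in every row.

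Listing by library was counted as well. Of the 90 loci, 21 were listed in stage 2 only, 42 in stage 1 only and 27 in both. Over all 1349 loci 37.9% were listed in stage 2 only and 13.8% in stage 1 only, while the stretch loci had 23.3% in stage 2 only and 46.7% in stage 1 only. On chrC 9 of 36 loci were in stage 2 only and 16 in stage 1 only, and on chrM 9 of 32 were in stage 2 only and 4 in stage 1 only. Among loci with 2 or 3 reads, 18 of 66 stretch loci were in stage 2 only, where the share over all loci was 65.3%, and 37 were in stage 1 only, where it was 26.2%. Counted by distinct combinations, 10 of 34 were in stage 2 only, 14 in stage 1 only and 10 in both. The shares over all loci above count every locus, and none is given over all distinct combinations. These last counts are therefore not set beside them. Earlier results on these lists had shown how the stretch loci were listed by library, so the listing is a description.

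On chromosome 1 the numbers were 7 in stage 2 only and 10 in stage 1 only, on chromosome 4 they were 5 in stage 2 only and 18 in stage 1 only, and on chromosome 10 they were 9 in stage 2 only and 14 in stage 1 only. Chromosome 4 numbers include its 12 loci of the 87, 71 and 125 nt set, 8 of which were in stage 1 only. Of the 4 stretch loci with at least 20 reads, JNnc_loci0101 was at least 2-fold higher in stage 2, where 32.9% of the 483 such loci were. The 3 loci of 170 nt were at least 2-fold lower, where 11.6% were, and these 3 have equal counts.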

How the data were processed

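For each library the authors deposited a headerless list of loci with chromosome, start, end, name, a number and strand. That number was read as a raw count of reads, because in the deposited lists it is whole, at least 1, and sums to different totals. Per the labels' protocols, RNA of 50 to 500 nt was ligated to adaptors and sequenced without amplification of the cDNA. The aligner, the genome build and the counting of reads that match several places are not given in the sources used, and reads shared between loci would make intervals too narrow.

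Lists were joined by locus name. Starts were taken as BED starts and raised by 1. Ratios of RPM used library totals (117798 reads in stage 2, 80651 in stage 1) and exact conditional binomial intervals. Runs were built as described beside their first use. A locus that fitted several runs was placed in the longest, then at the lowest chrC position. Run finding and intervals were tested on simulated data. The simulated unrelated loci had altered lengths, so the test says little about runs arising by coincidence. Simulated reads were independent, so reads shared between loci were not covered. Count models were not fitted with 1 library per stage. Alternatives covered scaling (edgeR 4.0.16 TMM factors, median ratios), filters and matching rules. Loci named were the 5 with most reads per stretch, ties included, first and last loci of runs, loci in no run, loci of at least 20 reads, combinations shared between stretches, and edge loci. The members and lists were chosen with earlier results of these data known. Python 3.11.15, scipy 1.17.1 and pandas 2.3.3 were used. No sequence and no gene annotation was used, so no locus is placed in a gene.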

Additional observations from a re-analysis of the deposited data

How the results depend on the processing

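Of 62 alternative values, 44 stayed within their counting interval or within 1.5 times their count, and none reversed a ratio whose interval excluded 1. The chromosome 1 ratio, whose interval included 1, moved to both sides of 1. It was 1.57 (1.01 to 2.50) for loci with at least 5 reads and 0.585 (0.388 to 0.880) without the 637 nt locus. With at least 5 reads the intervals for chromosome 10 (0.484 to 1.53) and all 3 stretches (0.746 to 1.28) came to include 1. Over all 3 stretches the ratio of 0.597 moved to 0.479 with TMM factors, 0.439 with median-of-ratios factors and 0.430 with the median locus set to no change. It moved to 0.791 with equal loci entered once and 0.974 for loci with at least 5 reads. Some settings were added after the counts were seen, and gave 0.448 without the 45 nt loci and 0.341 without these and the 637 nt locus. The filter at 5 reads moved chromosome 1 to 1.57, chromosome 4 to 0.621 and chromosome 10 to 0.856, because it leaves out the many loci listed with 2 to 4 reads. Chromosome 1 also moved to 0.585 without the 637 nt locus and to 0.373 without the 45 and 637 nt loci. Runs of at least 3 loci left 3 loci in runs on chromosome 1, because its other runs hold 2. The number of loci at least 2-fold higher in stage 2, 1 by library totals, was 0 under median-of-ratios and median-locus scaling, and 4 with a minimum of 10 reads or with none. Of loci at least 2-fold lower there were 3, and 11 with no minimum. Equal loci were counted separately in these numbers. The 4 higher loci were the 637 nt locus and the 3 equal 45 nt loci. The 11 lower loci included the 3 equal 170 nt loci. Shares over all loci are not given for these other settings, so the changed counts have no background to be set beside. No paired analysis was possible because the stages have a single library apiece, which also prevents leaving one out. Depth limits every single locus here, since most have 3 reads or fewer.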

Other observations

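Loci in runs that repeat organelle loci were also listed outside the 3 stretches. By the same rule, chromosome 8 held 12, chromosome 12 held 10, chromosome 2 held 6, chromosome 6 held 5, chromosome 7 held 3 and chromosome 9 held 2. Chromosome 10 held 6 beyond its stretch, while chromosomes 1 and 4 held 0 beyond theirs, as did chromosomes 3, 5 and 11. JNnc_loci0122 on chromosome 1 is not among them, since it equalled chrM loci singly.

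The density of loci in the stretches was not the highest in the nuclear lists. A window as long as any of the 3 stretches held up to 40 loci on chromosome 3, beside 24 on chromosome 1, 36 on chromosome 4 and 30 on chromosome 10.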
